A study of Homo sapiens with 6 samples.

Results

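The 31 genes described here encode parts of the 26S proteasome. They were chosen by gene symbol and not by a cut on measured values, though earlier results of these data were known at the time. They are 31 of the 26255 symbols in each deposited file. By role they comprise the 7 alpha ring genes of the 20S core (PSMA1 to PSMA7), 4 beta ring genes without a catalytic role (PSMB1 to PSMB4), the 6 ATPases of the 19S particle (PSMC1 to PSMC6), 3 genes of the 19S base (PSMD1, PSMD2 and PSMD4), 8 genes of the 19S lid (PSMD3, PSMD6, PSMD7, PSMD8, PSMD11, PSMD12, PSMD13 and PSMD14), and PSMD5, PSMD9 and PSMD10. The last 3 carry subunit-like symbols, but their proteins are chaperones that help assemble the 19S base and are not found in the finished particle, so they are given as a group of their own. RNA was measured in BxPC-3, a long-established line of human pancreatic cancer cells, in 6 libraries of 3 groups: 2 of parent cells without treatment (Parent), 2 of cells treated with a negative control (NC-1), and 2 of cells treated with the microRNA miR-4711-5p. Per the study's methods the RNA was taken 36 h after transfection, so Parent differs from the other groups by the transfection as well as by the duplex. All 3 groups are 1 cell line.

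The proteasome degrades proteins that carry a ubiquitin chain. Its 20S core is a barrel of stacked rings, in which the outer alpha rings gate the entrance and the inner beta rings hold the proteases, and the 19S particle on either end binds the ubiquitin chain, removes it and feeds the unfolded protein into the barrel. The subunits are built into the particle in fixed proportions, and their genes are known to be switched on together by the transcription factor NFE2L1 (NRF1), which binds antioxidant response elements in their promoters. A microRNA lowers the level of messenger RNAs that pair with its seed, the short stretch at bases 2 to 8 of its 5′ end, mainly through sites in the 3′ untranslated region (3′ UTR).

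The values are FPKM, a unit in which fragment numbers are scaled to transcript length and library size. They hold no read counts, and the depth of the libraries is therefore unknown. Estimated from the steps between the lowest values, the depth relative to Parent 1 was 0.873 in Parent 2. It was 0.751 and 0.857 in NC-1 and 1.075 and 1.206 with miR-4711-5p, so the estimate differed by group. Only 29.0% to 36.4% of those low values lay on the estimated ratio. The values of a library summed to 543074 and 550772 FPKM in Parent, 515348 and 515688 in NC-1, and 493145 and 499659 with miR-4711-5p. Summed epithelial markers (EPCAM, KRT7, KRT8, KRT18, KRT19 and CDH1) were between 5190 and 6250 FPKM, and the summed acinar, islet, fibroblast, endothelial and blood markers were at most 5.1, 0, 2.41, 3.35 and 1.09 FPKM in any library. The epithelial markers did not move alike: with miR-4711-5p, CDH1 and KRT19 were 0.256 and 0.553 times Parent. EPCAM, KRT7, KRT8 and KRT18 were 1.08, 0.938, 0.94 and 1.14 times Parent. The labels do not say whether the 2 libraries of a group came from separate cultures, so the p-values below measure only the spread between these libraries, which may be technical.

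The mature microRNA and the places where its seed is matched in the 3′ UTRs of these genes are printed first, because they are what sets PSMA4, PSMA5 and PSMB2 apart from the other 28 genes by sequence. The seed is in capitals in the microRNA (RefSeq), and the bases of each site are in capitals, where the last A of an 8mer or 7mer-A1 site lies opposite base 1 of the microRNA and outside the seed. The sites are read 5′ to 3′ on the strand of the gene from GRCh37, the same build as hg19. An 8mer site is CTGATGCA, a 7mer-m8 site is CTGATGC and a 7mer-A1 site is TGATGCA.
miR-4711-5p: uGCAUCAGgccagaagacaugag
PSMA4, 3′ UTR, 8mer: cagagtgttgcCTGATGCAtcccaaatgct
PSMA5, 3′ UTR, 7mer-A1: ccatatgtggaTGATGCAgaattgatttaa
PSMB2, 3′ UTR, 7mer-m8: tccagttgctaCTGATGCtgctggtctagg

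The PSMA4 site lies at chr15:78844498-78844505 on the plus strand, 3212 nt into a 3′ UTR that is 3473 nt long. In GENCODE release 44 that UTR belongs to the canonical transcript and to no other of the 7 coding transcripts of PSMA4 with a 3′ UTR, and FPKM per gene does not show which of them BxPC-3 cells make. The PSMA5 site lies at chr1:109943481-109943487 on the minus strand, at position 1148 of a UTR of 2971 nt. The PSMB2 site lies at chr1:36067372-36067378 on the minus strand, at position 1490 of a UTR of 3726 nt. With any of the 3 site types in the longest annotated 3′ UTR counted, these are 3 of the 31 genes (9.68%), against 1957 of the 10593 tested genes that were matched to a coding transcript with a 3′ UTR (18.5%). The median longest 3′ UTR was 459 nt for the 31 genes and 1504 nt for those 10593 genes.

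Among the 31 genes, PSMA4 mRNA changed the most with miR-4711-5p: it fell by 43.1% against Parent and fell by 42.0% against NC-1. On the log2 scale, 29 of the 31 genes stayed within 0.3 of Parent, where 69.0% of the 12040 genes tested did. Within 0.3 of NC-1 there were 25 of the 31, against 71.2% of the genes tested. PSMD10, the assembly chaperone gankyrin, was the only other member called lower than both control groups without overlap, and PSMC4, PSMC6, PSMD12 and PSMA3 were called higher than both without overlap. These 6 of 31 genes compare with 25.5% of all genes tested, of which 1860 were lower and 1207 higher. Each comparison was tested with limma on log2(FPKM + 1), two-sided, over the 12040 genes that averaged 1 FPKM or more, with a Benjamini-Hochberg adjusted p under 0.05 as the threshold. All 31 genes passed this filter, and none had a value under 21.93 FPKM in any library. Differences on this scale are called log2 differences below.

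Against Parent, 4 of the 31 genes were higher (18.7% of all genes tested) and 8 were lower (24.7% of all genes tested) with miR-4711-5p, and 19 did not pass the test. The lower genes were PSMA4, PSMA5, PSMA7, PSMB4, PSMD2, PSMD4, PSMD5 and PSMD10. The median log2 difference of the 31 genes was -0.01, and that of all genes tested was also -0.01. For the tested genes averaging 10 FPKM or more, as all 31 do, it was -0.07. Against NC-1, 13 were higher (18.4% of all genes tested) and 2 were lower (21.2% of all genes tested). Their median log2 difference was 0.12, that of all genes tested was 0.0038, and that of genes averaging 10 FPKM or more was -0.0053. The 13 were PSMA3, PSMA6, PSMB1, PSMB2, PSMB3, PSMC1, PSMC4, PSMC6, PSMD3, PSMD7, PSMD11, PSMD12 and PSMD13. Both miR-4711-5p libraries lay above all 4 control libraries for 11 of the 31 genes (23.8% of all genes tested) and below all 4 for 4 of them (26.3% of all genes tested). The 2 comparisons share the miR-4711-5p libraries, so their counts are not independent of each other. In RNA from whole cultures, fewer cells making an mRNA and less of it per cell cannot be told apart.

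**Figure D1:**
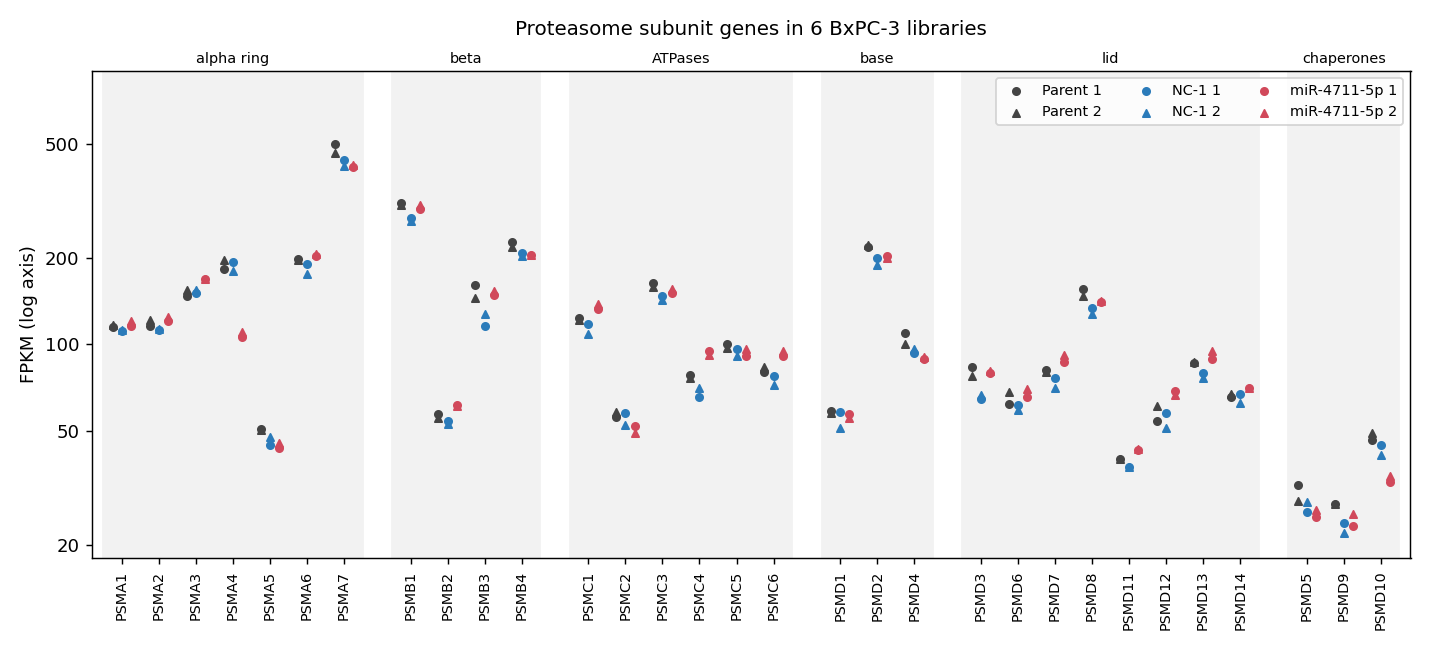
FPKM (log axis) of the 31 genes in the 6 libraries, grouped by role, with circles for library 1 and triangles for library 2 of Parent (black), NC-1 (blue) and miR-4711-5p (red). Most genes keep their place between libraries, while PSMA4 drops from between 180.2 and 197.6 in the 4 control libraries to 106.0 and 110.5 with miR-4711-5p.

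Many calls did not hold when a library was left out. Leaving a library out leaves 1 in its group and fewer degrees of freedom, so a lost call alone does not show that 1 library carried it. The log2 difference of PSMA3 from Parent was 0.1543 and 0.1608 without miR-4711-5p 1 and 2, beside 0.1575 with all libraries. That of PSMD12 moved more, from 0.2369 to 0.1483 without Parent 1. With each of the 6 libraries left out in turn, PSMA4 and PSMD10 were still lower and PSMC4 still higher than in both control groups in every case, and PSMC6 and PSMD3 were still higher than in NC-1. Every other call against Parent or NC-1 was lost without at least 1 library. The number of higher genes against Parent went from 4 to 1 without Parent 1, miR-4711-5p 1 or miR-4711-5p 2. The number of lower genes went from 8 to 2 without Parent 1, miR-4711-5p 1 or miR-4711-5p 2, and to 5 without Parent 2. Against NC-1, the number of higher genes went from 13 to 3 without miR-4711-5p 2 and to 7 without miR-4711-5p 1.

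The split between higher and lower also depended on the scale of the libraries. Besides the deposited scale, 3 others were fitted: the same sum in every library, and median-of-ratios factors over all genes or over those of at least 10 FPKM. The factors over all genes were 1.006 or 1.007 in every library. That scale thus nearly repeats the deposited one and is no separate check. When every library was rescaled to the same sum, the median of all genes tested against Parent moved from -0.0127 to 0.1151 on the log2 scale. Then 16 of the 31 genes were higher and 2, PSMA4 and PSMD10, were lower than Parent. Of the 12040 genes tested, 3980 were higher and 1759 lower on that scale. The median of the 31 genes was 0.13 on that scale, beside 0.12 for all genes, so relative to all genes it stayed where it was.

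**Figure D2:**
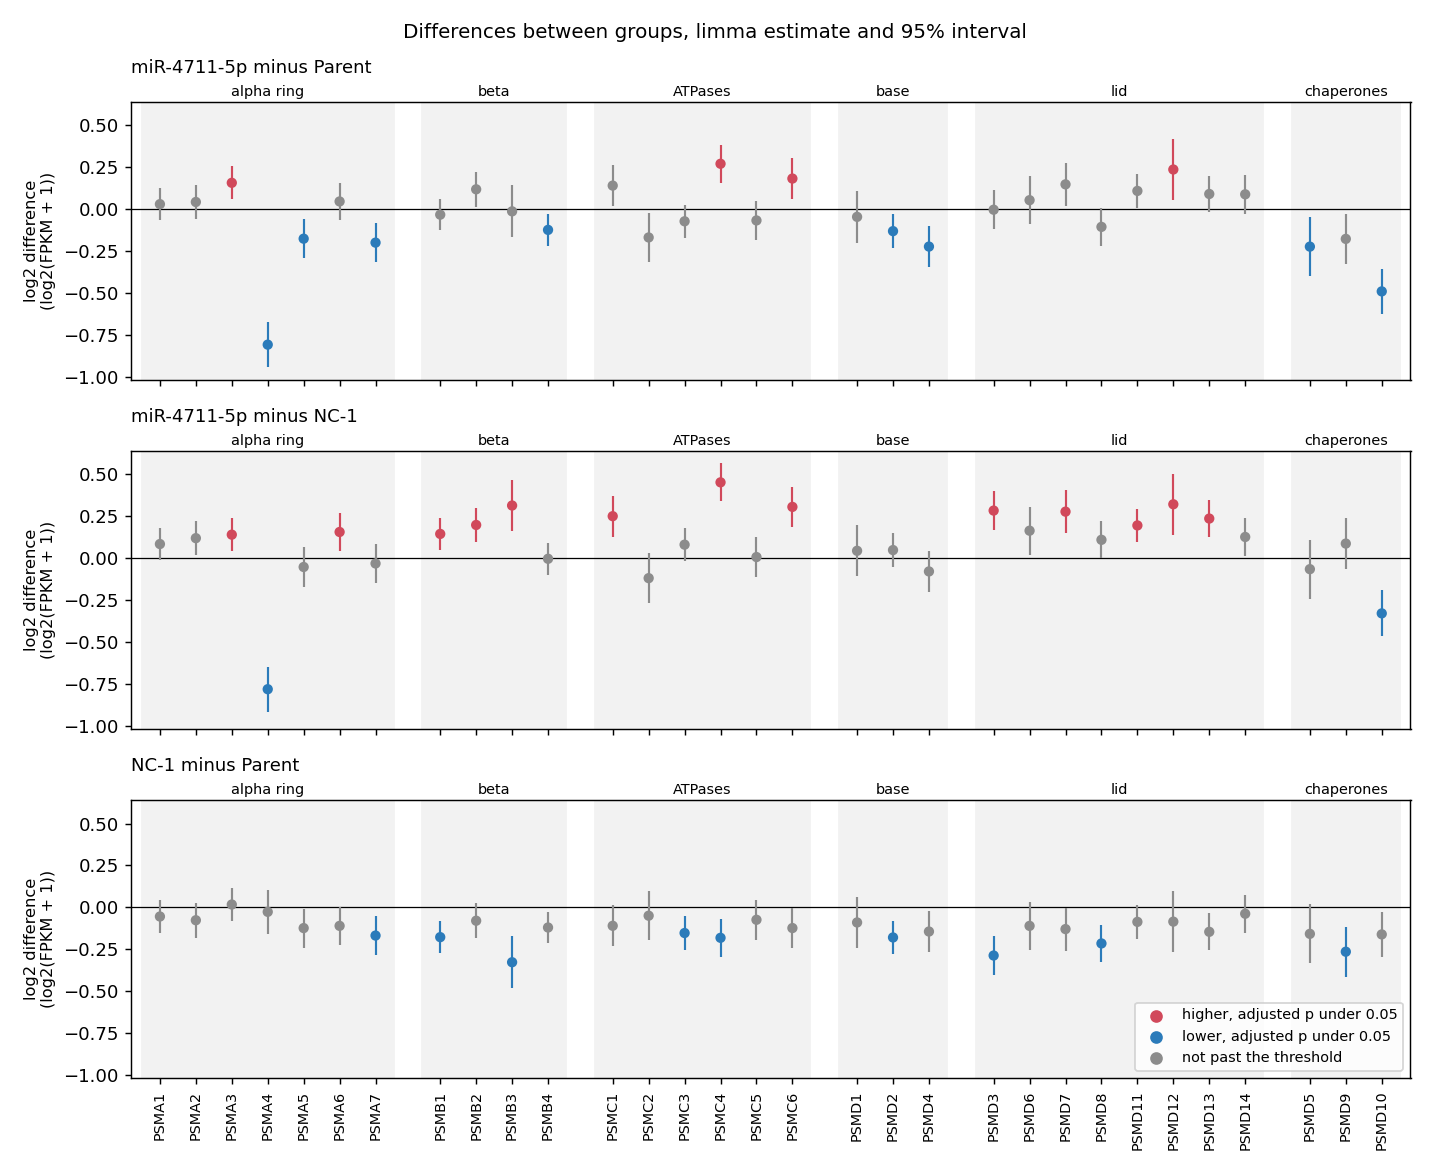
Log2 difference of each gene on the log2(FPKM + 1) scale, with its 95% limma interval, for miR-4711-5p minus Parent, miR-4711-5p minus NC-1 and NC-1 minus Parent. Red points are higher and blue points lower at an adjusted p under 0.05, and PSMA4 stands at -0.81 and -0.78 in the upper and middle panels while 30 of the 31 genes lie below 0 in the lowest panel (23 of 31 when libraries are rescaled to the same sum).

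In the alpha ring, PSMA4 changed by far more than the other 6 genes. PSMA4 encodes the alpha subunit whose tail forms part of the gate of the 20S core. Its values were 183.1 and 197.6 FPKM in Parent, 193.5 and 180.2 in NC-1, and 106.0 and 110.5 with miR-4711-5p. The groups did not overlap between control and miR-4711-5p libraries, and the 2 control groups overlapped each other. The log2 difference by limma was -0.81 ± 0.06 (SE, n = 2 against 2) against Parent (adjusted p = 5.55e-05) and -0.78 ± 0.06 against NC-1 (adjusted p = 7.6e-05). NC-1 differed from Parent by -0.03 on that scale (limma, adjusted p = 0.753), and that small difference changed sign when libraries were rescaled. The gene was called lower in both comparisons in all 14 refits with other settings or with a library left out, at adjusted p-values of up to 0.00194 and 0.00252.

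Relative to its own ring, PSMA4 went from above to below the middle. The ratio of PSMA4 to the median of the other alpha ring genes, which no rescaling of a library can move, was 1.39 and 1.43 in Parent, 1.46 and 1.34 in NC-1, and 0.731 and 0.752 with miR-4711-5p. Its rank among the 7 alpha ring mRNAs, counted from the most abundant, was 3 in both Parent libraries, 2 in both NC-1 libraries and 6 in both miR-4711-5p libraries. Its share of the summed alpha ring FPKM was 14.0% to 15.5% in the 4 control libraries and 9.01% and 9.21% with miR-4711-5p.

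**Figure D3:**
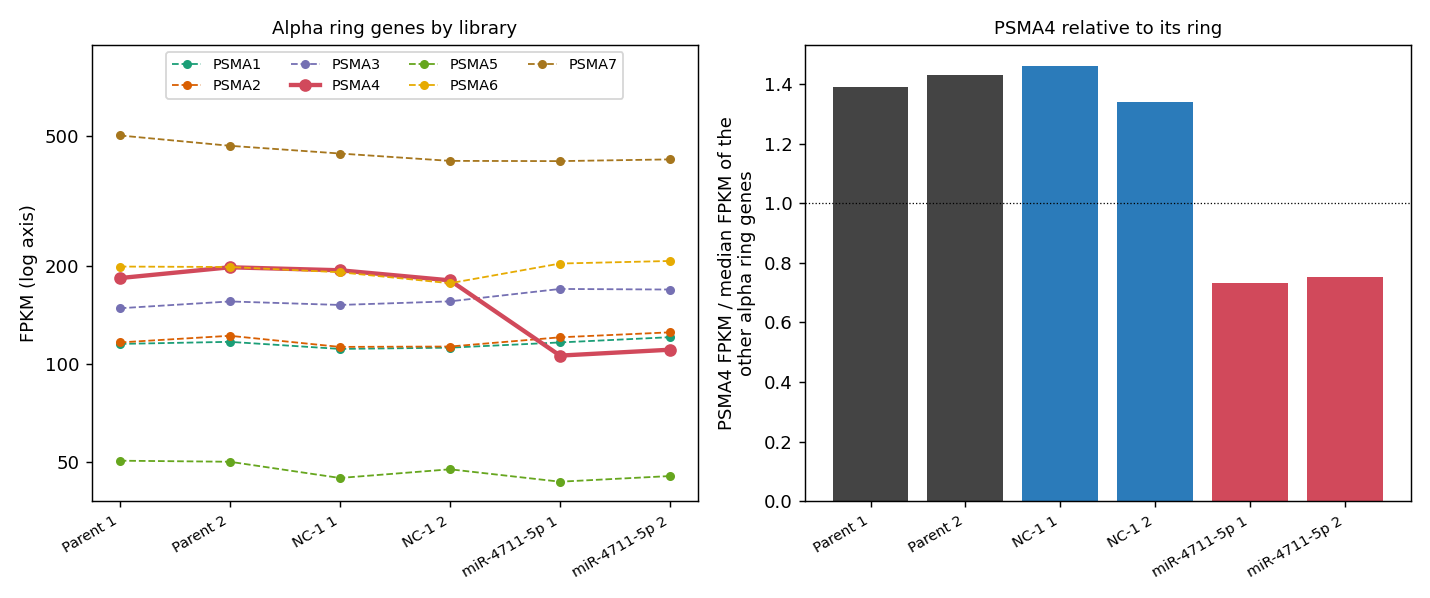
Left, FPKM (log axis) of the 7 alpha ring genes by library, where the lines only join the points of a gene; right, the ratio of PSMA4 to the median FPKM of the other 6 genes in each library. The ratio is between 1.34 and 1.46 in the 4 control libraries and 0.731 and 0.752 with miR-4711-5p.

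The most abundant alpha ring mRNA, and the most abundant of all 31, was PSMA7. It had 500.7 and 465.5 FPKM in Parent, 440.8 and 418.5 in NC-1, and 417.8 and 422.9 with miR-4711-5p. Both transfected groups were below Parent and overlapped each other: limma gave a log2 difference of -0.20 ± 0.05 for miR-4711-5p (adjusted p = 0.0152) and -0.17 ± 0.05 for NC-1 (adjusted p = 0.0431) against Parent, and -0.03 between them (adjusted p = 0.65), which turned positive when libraries were rescaled to the same sum. The call against Parent was lost without Parent 1 or either miR-4711-5p library (adjusted p = 0.0684 to 0.0934).

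PSMA5, the least abundant alpha ring mRNA and a gene with a 7mer-A1 site, showed a much smaller difference than PSMA4. It had 50.51 and 50.14 FPKM in Parent, 44.72 and 47.54 in NC-1, and 43.56 and 45.33 with miR-4711-5p. Both transfected groups lay below Parent and overlapped each other. The log2 difference of miR-4711-5p from Parent was -0.18 ± 0.05 (limma, adjusted p = 0.0254), and from NC-1 it was -0.05 ± 0.05 (limma, adjusted p = 0.438), a difference that changed sign to 0.0014 when libraries were rescaled to the same sum. The call against Parent was lost without either Parent or either miR-4711-5p library (adjusted p = 0.0636 to 0.147).

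On the deposited scale, PSMA3 was the only alpha ring gene higher than in both control groups. It had 148.0 and 155.3 FPKM in Parent, 151.5 and 155.4 in NC-1, and 169.6 and 168.9 with miR-4711-5p, so both miR-4711-5p libraries were above all 4 control libraries. Against Parent it differed by 0.16 ± 0.04 on the log2 scale (limma, adjusted p = 0.0212), and from NC-1 by 0.14 ± 0.04 (adjusted p = 0.0346). Both calls were lost without either miR-4711-5p library, the first also without Parent 1 and the second without either NC-1 library (adjusted p of 0.105 and 0.141 at most). PSMA6 passed the test only against NC-1, where it was 11.5% higher, and that call was lost in 5 of the 6 refits with a library left out. PSMA1 and PSMA2 passed in no comparison, with log2 differences from Parent of 0.03 (95% interval -0.066 to 0.127) and 0.04 (-0.06 to 0.147). When libraries were rescaled to the same sum, these were 0.17 and 0.18, and that of PSMA6 was 0.19. PSMA1, PSMA2 and PSMA6 then passed as higher than Parent (limma, adjusted p of 0.0121, 0.0143 and 0.0152). They also passed as higher than NC-1 on that scale (limma, adjusted p of 0.0284, 0.0191 and 0.0104).

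On the deposited scale, 3 of the 4 non-catalytic beta genes were higher with miR-4711-5p than in NC-1 (18.4% of all genes tested). None was higher than in Parent (18.7% of all genes tested). When libraries were rescaled to the same sum, 2 of the 4 were higher than in Parent, against 3980 of the 12040 genes tested. These subunits complete the beta rings without cutting proteins. PSMB1, the most abundant, had 312.2 and 306.1 FPKM in Parent, 276.4 and 270.0 in NC-1, and 297.0 and 307.5 with miR-4711-5p. The NC-1 libraries were thus the low ones, and the Parent and miR-4711-5p libraries overlapped. Limma gave a log2 difference of 0.15 ± 0.04 against NC-1 (adjusted p = 0.0248) and -0.03 ± 0.04 against Parent (adjusted p = 0.541), the latter with its sign reversed when libraries were rescaled. The call against NC-1 was lost without NC-1 2 or either miR-4711-5p library (adjusted p = 0.0648 to 0.146).

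PSMB2 is the least abundant of the 4 and the one whose 3′ UTR holds a 7mer-m8 site, and its level was not lower with miR-4711-5p. It had 57.39 and 55.49 FPKM in Parent, 54.03 and 52.65 in NC-1, and 61.62 and 61.1 with miR-4711-5p. Both miR-4711-5p libraries were above all 4 control libraries, by a log2 difference of 0.12 ± 0.04 from Parent (limma, adjusted p = 0.0626) and 0.20 ± 0.04 from NC-1 (limma, adjusted p = 0.0103). The call against NC-1 was lost without either miR-4711-5p library (adjusted p of 0.0559 and 0.0668). The other beta genes differed by group in the same sense as PSMB1 or PSMA7: PSMB3 was 24.5% higher than in NC-1 and 0.99 times Parent, within the range of the Parent libraries, and PSMB4 was 0.918 times Parent (limma, adjusted p = 0.0423) and 0.998 times NC-1. The calls of PSMB3 and PSMB4 were each lost without at least 2 libraries. When libraries were rescaled to the same sum, the log2 difference from Parent turned positive for both, at 0.13 and 0.02 (limma, adjusted p of 0.133 and 0.753), so PSMB4 was no longer called.

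The 6 ATPases form the ring that unfolds the substrate and opens the gate of the core. With miR-4711-5p, 2 of 6 were higher than in Parent (18.7% of all genes tested) and 3 of 6 were higher than in NC-1 (18.4%). None was lower (24.7% and 21.2% of all genes tested). PSMC4 had the largest increase of all 31 genes. Its values were 78.0 and 76.6 FPKM in Parent, 65.81 and 70.32 in NC-1, and 94.77 and 92.22 with miR-4711-5p. The 3 groups did not overlap. Limma estimated a log2 difference of 0.27 ± 0.05 against Parent (adjusted p = 0.00379) and 0.45 ± 0.05 against NC-1 (adjusted p = 0.000436), and NC-1 was lower than Parent by 0.18 on the log2 scale (limma, adjusted p = 0.0312), a call that was lost in 5 of the 6 refits with a library left out. Relative to the median of the other ATPases, PSMC4 went from 0.78 and 0.788 in Parent and 0.683 and 0.773 in NC-1 to 1.04 and 0.953 with miR-4711-5p.

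PSMC6 was higher than in both control groups as well. It had 80.25 and 83.39 FPKM in Parent, 77.7 and 72.4 in NC-1, and 91.15 and 94.89 with miR-4711-5p, with no overlap between the miR-4711-5p libraries and the controls. Against Parent it differed by 0.18 ± 0.05 on the log2 scale (limma, adjusted p = 0.0254), and from NC-1 by 0.31 ± 0.05 (adjusted p = 0.00338), and the former was lost without either Parent or either miR-4711-5p library (adjusted p = 0.0528 to 0.139).

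PSMC3, the most abundant ATPase mRNA, had 164.5 and 158.9 FPKM in Parent, 147.5 and 143.1 in NC-1, and 151.7 and 155.9 with miR-4711-5p. The miR-4711-5p libraries lay between the other groups and passed neither test, at log2 differences of -0.07 ± 0.04 from Parent, which turned positive under 2 of the 3 other scales, and 0.08 ± 0.04 from NC-1 (limma, adjusted p of 0.208 and 0.168). PSMC2, the least abundant, was the only ATPase with both miR-4711-5p libraries under all 4 controls: 55.62 and 58.28 FPKM in Parent, 57.83 and 52.24 in NC-1, and 52.11 and 49.04 with miR-4711-5p. Its log2 differences of -0.17 ± 0.06 and -0.12 ± 0.06 did not pass the test (limma, adjusted p of 0.0654 and 0.174). PSMC1 was 19.1% higher than in NC-1 (limma, adjusted p = 0.00794; lost without miR-4711-5p 2, 0.0645), and PSMC5 passed in no comparison. PSMC1 has 13 annotated pseudogenes, the most of the 14 members that have any, and how many reads they share was not measured.

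The 3 genes of the 19S base scaffold and ubiquitin receptors gave no call against NC-1. Of all genes tested, 18.4% were higher and 21.2% lower in that comparison. PSMD2, the most abundant, encodes the scaffold to which shuttle factors and a deubiquitinase bind. It had 219.4 and 222.6 FPKM in Parent, 200.4 and 189.7 in NC-1, and 202.9 and 200.6 with miR-4711-5p, so both transfected groups were below Parent. The log2 difference from Parent was -0.13 ± 0.04 with miR-4711-5p (limma, adjusted p = 0.0426) and -0.18 ± 0.04 in NC-1 (limma, adjusted p = 0.0219). The former was lost without either Parent or either miR-4711-5p library (adjusted p = 0.0972 to 0.165), and its sign reversed when libraries were rescaled to the same sum. PSMD1, the other large scaffold, had 58.42 and 57.62 FPKM in Parent, 58.12 and 51.0 in NC-1, and 57.13 and 55.25 with miR-4711-5p. The range of NC-1 took in that of miR-4711-5p and reached Parent, and PSMD1 passed in no comparison. PSMD4, a ubiquitin receptor, was 0.855 times Parent (limma, adjusted p = 0.012; lost without Parent 1 or either miR-4711-5p library), with both miR-4711-5p libraries under all 4 controls, and 0.946 times NC-1 (adjusted p = 0.266).

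The 8 genes of the lid encode the cover of the 19S particle, which includes the deubiquitinase PSMD14. All 8 had a positive log2 difference from NC-1 under the deposited and the 3 other scales, with a median of 0.22 on the deposited one. Of the 8, 5 passed the test as higher (18.4% of all genes tested): PSMD3, PSMD7, PSMD11, PSMD12 and PSMD13. Against Parent only PSMD12 passed on the deposited scale, and the median was 0.09. When libraries were rescaled to the same sum, 7 of the 8 were called higher than Parent, with a median of 0.23. Of the 12040 genes tested, 3980 were called higher on that scale. Median-of-ratios factors over genes of at least 10 FPKM gave 5 of the 8, with a median of 0.16, against 3086 of the 12040 genes.

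PSMD12 had 53.97 and 61.15 FPKM in Parent, 57.48 and 50.92 in NC-1, and 69.05 and 66.73 with miR-4711-5p. The miR-4711-5p libraries were above all controls, and the 2 control groups overlapped. Limma estimated a log2 difference of 0.24 ± 0.08 against Parent (adjusted p = 0.0437) and 0.32 ± 0.08 against NC-1 (adjusted p = 0.0151). Both calls were lost without either miR-4711-5p library, the first also without Parent 1 and the second without NC-1 2 (adjusted p of 0.218 and 0.0958 at most).

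PSMD8, the most abundant lid mRNA, had 156.1 and 148.0 FPKM in Parent, 134.3 and 127.4 in NC-1, and 140.3 and 142.2 with miR-4711-5p, with the 3 groups in separate ranges. Limma gave a log2 difference of -0.11 ± 0.05 against Parent, which turned positive when libraries were rescaled to the same sum, and 0.11 ± 0.05 against NC-1 (adjusted p of 0.112 and 0.105). PSMD11, the least abundant, had the smallest spread: 39.76 and 39.72 FPKM in Parent, 37.32 and 37.41 in NC-1, and 42.75 and 43.14 with miR-4711-5p. Its log2 difference was 0.20 ± 0.04 against NC-1 (limma, adjusted p = 0.00961; lost without either miR-4711-5p library, 0.0542 and 0.0636) and 0.11 ± 0.04 against Parent (adjusted p = 0.0736).

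PSMD3 was 22.1% higher than in NC-1 (limma, adjusted p = 0.0039) and 0.997 times the level in Parent, and NC-1 was 0.817 times Parent (limma, adjusted p = 0.00746). When libraries were rescaled to the same sum, its log2 difference from Parent was 0.14 and passed the test (limma, adjusted p = 0.047). Of the 15 calls against NC-1, that of PSMD3 was among the 5 that held with every library left out. PSMD7 and PSMD13 were 21.5% and 18.1% higher than in NC-1, calls that were lost without miR-4711-5p 2 (limma, adjusted p of 0.056 and 0.0553). PSMD6 and PSMD14 were 12.3% and 9.29% above NC-1 in mean FPKM without passing the test (limma, adjusted p of 0.0665 and 0.0757).

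The 3 assembly chaperones had the lowest levels of the 31 genes together with PSMD11, and all 3 had lower means than in Parent on all 4 scales. PSMD10, the highest of them, has ankyrin repeats and binds the ATPase PSMC4 during assembly. It had 46.56 and 49.18 FPKM in Parent, 44.39 and 41.04 in NC-1, and 32.97 and 34.62 with miR-4711-5p. The 3 groups did not overlap. Against Parent it differed by -0.49 ± 0.06 on the log2 scale (limma, adjusted p = 0.000631), and from NC-1 by -0.33 ± 0.06 (adjusted p = 0.00412), and both calls held in all 14 refits. PSMD10 and PSMC4, whose proteins bind each other, thus moved in opposite directions, under all 4 scales. PSMD10 has no match to the miR-4711-5p seed in an annotated 3′ UTR or coding sequence, and it has 3 annotated pseudogenes.

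PSMD9, the lowest of the 31 genes, had 27.65 and 27.63 FPKM in Parent, 23.78 and 21.93 in NC-1, and 23.22 and 25.5 with miR-4711-5p. Its transfected groups overlapped below Parent, with log2 differences of -0.18 ± 0.06 for miR-4711-5p (limma, adjusted p = 0.0591) and -0.26 ± 0.06 for NC-1 (limma, adjusted p = 0.0233). PSMD5 was 0.851 times Parent (limma, adjusted p = 0.0459), a call lost in 5 of the 6 refits with a library left out, and 0.954 times NC-1.

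Summed by role, the chaperones had the lowest sums relative to Parent with miR-4711-5p, and the ATPases and the lid the highest. Within the chaperones, PSMD10 was 0.706 times Parent, PSMD5 0.851 times and PSMD9 0.881 times. Of these, only PSMD10 was called lower than NC-1. The 31 genes summed to 3795 and 3742 FPKM in Parent, 3487 and 3374 in NC-1, and 3578 and 3648 with miR-4711-5p, which was 0.689% of all FPKM in both Parent libraries, 0.676% and 0.655% in NC-1, and 0.725% and 0.73% with miR-4711-5p. By FPKM the NC-1 libraries were the lowest, and by share of all FPKM the miR-4711-5p libraries were the highest. In miR-4711-5p libraries 1 and 2 the alpha ring sum was 89.9% and 91.7% of the Parent mean, and without PSMA4 it was 95.7% and 97.4%. The ATPases stood at 102% and 105%, the lid at 102% and 105%, the beta genes at 96.1% and 98.0%, the base at 90.9% and 90.1%, and the chaperones at 76.8% and 81.9% of the Parent mean. With every library rescaled to the same sum, these values were higher: 99.7% in library 1 and close to the Parent mean in library 2 for the alpha ring, 106% and 107% without PSMA4, 107% and 107% for the beta genes, 101% and 98.7% for the base, and 85.2% and 89.6% for the chaperones. The ATPases and the lid then both stood at 114% and 115%, so that the alpha ring without PSMA4 and the beta genes lay below Parent on the deposited scale and above it on the rescaled one. The order of the 31 genes by mean FPKM in Parent and with miR-4711-5p had a Spearman correlation of 0.973, a description over genes measured in the same libraries.

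**Figure D4:**
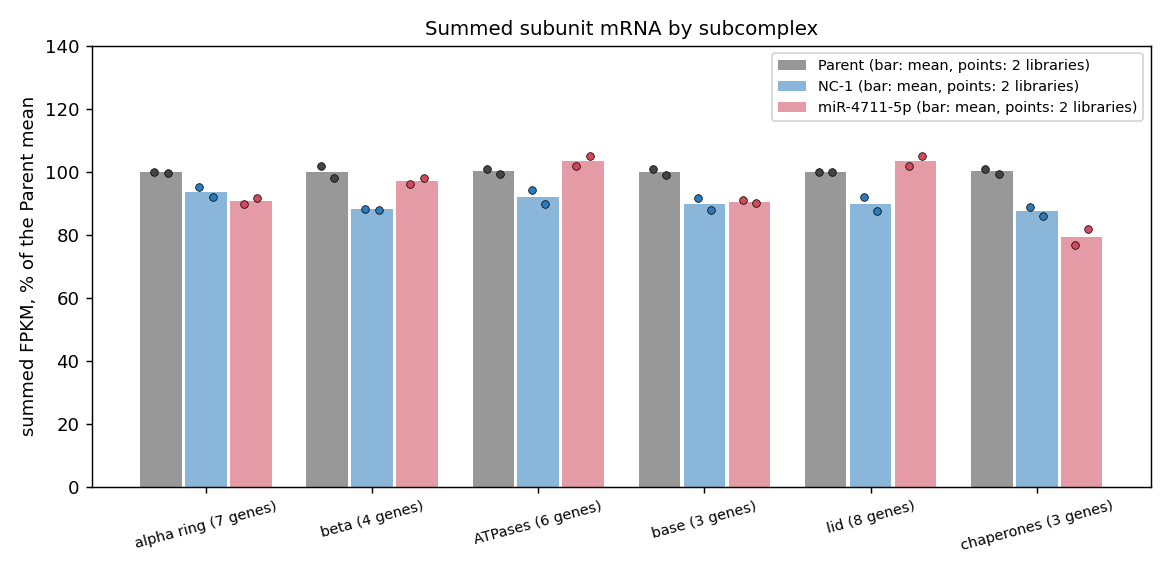
Summed FPKM, as deposited, of the genes of each role as a percentage of the mean of the 2 Parent libraries; bars are group means and points the 2 libraries. The NC-1 points lie between 86.1% and 95.1% in every role, and those of miR-4711-5p lie between 102% and 105% for ATPases and lid and between 76.8% and 81.9% for the chaperones (114% to 115% and 85.2% to 89.6% when libraries are rescaled to the same sum).

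The NC-1 libraries differed from Parent as well. Between NC-1 and Parent, 9 of the 31 genes were lower (15.1% of all genes tested) and none was higher (12.1% of all genes tested; none of the 31 was higher at an unadjusted limma p under 0.05 either). The 9 were PSMA7, PSMB1, PSMB3, PSMC3, PSMC4, PSMD2, PSMD3, PSMD8 and PSMD9. The largest was PSMB3, with 160.8 and 145.4 FPKM in Parent, 116.1 and 127.5 in NC-1, and 148.9 and 154.3 with miR-4711-5p. Its log2 difference of NC-1 from Parent was -0.33 ± 0.07 (limma, adjusted p = 0.0122), lost without Parent 1 or NC-1 1 (adjusted p of 0.0688 and 0.0757). The call of PSMD3 was the only one of the 9 that held with every library left out, and the count fell to 1 without Parent 1, to 3 without NC-1 2 and to 5 without each of the other libraries.

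In direction the 31 genes were nearly uniform between NC-1 and Parent. The log2 difference was negative for 30 of the 31, all except PSMA3, against 51.8% of all genes tested and 60.9% of those averaging 10 FPKM or more. Both NC-1 libraries were below both Parent libraries for 25 of them (34.2% of all genes tested) and above both for none (31.3%). Their median log2 difference was -0.12, beside -0.01 for all genes and -0.05 for those averaging 10 FPKM or more. When libraries were rescaled to the same sum, 23 of the 31 were negative, 2 (PSMB3 and PSMD3) were called lower, and the medians were -0.04 for the 31 genes and 0.07 for all genes. NFE2L1, the transcription factor named above, had 65.68 and 64.3 FPKM in Parent, 53.49 and 50.89 in NC-1, and 65.25 and 64.52 with miR-4711-5p. NC-1 was 0.803 times Parent (limma, adjusted p = 0.00428) and miR-4711-5p was 0.998 times Parent, so its NC-1 libraries were the low ones too, and its part in the levels of the 31 genes was not tested.

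Seed matches in coding sequence were also listed, since a microRNA can pair there. Of the 31 genes, 10 had at least 1 in an annotated coding sequence (32.3%), against 25.1% of the 10593 tested genes. Besides PSMA4 and PSMA5 they were PSMA1, PSMA2, PSMC2, PSMD1, PSMD3, PSMD4, PSMD5 and PSMD9. The 3 alpha ring matches of the 7mer-m8 kind are shown because they share the run CTGATGCTA, and the match in PSMD3 because it is an 8mer; capitals again mark the bases of the site.
PSMA4, coding sequence: aggcataacttCTGATGCtaatgttctgac
PSMA1, coding sequence: ggggcttactgCTGATGCtagactgttatg
PSMA5, coding sequence: tgggctaattgCTGATGCtaagactttaat
PSMD3, coding sequence, 8mer: tctctgatgatCTGATGCAgaagatcagta

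These lie at chr15:78836564-78836570 (PSMA4, in 6 of 7 coding transcripts), chr11:14539200-14539206 (PSMA1), chr1:109955727-109955733 (PSMA5) and chr17:38144957-38144964 (PSMD3) on GRCh37. The mRNAs that carry them did not move alike: the ratio of mean FPKM to Parent was 0.569 for PSMA4, 0.883 for PSMA5, 1.02 for PSMA1 and 0.997 for PSMD3. By kind of match, the median log2 difference from Parent was -0.18 for the 3 genes with a 3′ UTR site, -0.11 for the 8 with a match in coding sequence only and 0.05 for the other 20. Against NC-1 the medians were -0.05, 0.06 and 0.15 in the same order. For all tested genes with and without a seed match in the 3′ UTR of any transcript, 2180 and 8413 in number, the medians were -0.07 and -0.01 against Parent and -0.10 and 0.02 against NC-1. The seed of the other, fully complementary strand of the duplex was matched in the longest 3′ UTR of PSMC1 and PSMD14 only (6.45%, against 22.2% of the 10593 genes).

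The promoters were searched for TGACNNNGC, the core of the antioxidant response element, and for CCAAT, on both strands, from 250 bases before to 50 after each RefSeq start on GRCh38.p14. Of the 31 genes, 28 matched the promoter table, with 33 promoters. TGACNNNGC was found in 9 of the 33 (27.3%), those of PSMA4, PSMB3, PSMC4, PSMC5, PSMD1, PSMD3, PSMD5, PSMD9 and PSMD12, against 13.3% of all 35116 promoters. All 5 matches in PSMA4 and PSMC4, the members with the largest fall and rise with miR-4711-5p, and in PSMB3 and PSMD3, those with the largest falls in NC-1 against Parent, are shown on the strand of the gene. The motif is in capitals, as its reverse complement where it lies on the other strand (PSMC4, and PSMD3 at 33), with its distance from the start.
PSMA4, -126: gtgggcacgaTGACTCTGCaccgcctcctc
PSMB3, -104: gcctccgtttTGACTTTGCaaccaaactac
PSMC4, 27: acagaggccgGCTTGGTCActatggaggag
PSMD3, -37: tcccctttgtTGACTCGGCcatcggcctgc
PSMD3, 33: gtttgcagctGCTCCGTCAtcgtgcgg

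CCAAT was found in 15 of the 33 member promoters (45.5%), against 34.6% of all promoters. Genes with TGACNNNGC had a median log2 difference of NC-1 from Parent of -0.16 (9 genes), and the other 19 matched genes had a median of -0.11, both on the deposited scale. A match of letters is a description and was not tested for binding.

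Of 40 other genes of the proteasome pathway, PSMA8 and PSMB11, the testis and thymus variants of core subunits, were listed at 0 in every library and 38 were tested. Of those 38, 5 rose and 8 fell against Parent (18.7% and 24.7% of all genes tested), while 9 rose and 7 fell against NC-1 (18.4% and 21.2%). The catalytic subunit PSMB6 stood far apart from the others. It had 183.4 and 171.0 FPKM in Parent, 153.8 and 165.4 in NC-1, and 36.79 and 40.23 with miR-4711-5p, a ratio of 0.217 to Parent and 0.241 to NC-1. The other catalytic genes did not share this: PSMB7 was 1.1 times Parent (limma, adjusted p = 0.0348), and PSMB5 was 0.947 times Parent without passing the test (adjusted p = 0.212). The immunoproteasome subunits PSMB8 and PSMB9, which replace catalytic subunits after interferon, were 1.37 and 1.4 times Parent, and PSMB10, the remaining one, was 1.04 times Parent and did not pass.

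Around the particle, genes that bring substrates to it changed in both directions. The ubiquitin shuttle genes UBQLN2 and UBQLN1 were 0.599 and 0.752 times Parent, and the shuttle RAD23B was higher by 0.32 on the log2 scale. RPS27A, which encodes ubiquitin fused to a ribosomal protein, was 0.644 times Parent, VCP, the unfoldase p97, was 0.778 times, and PSMF1, a proteasome inhibitor, was 0.855 times. DDI2, the protease that activates NFE2L1, had 11.82 and 12.45 FPKM in Parent, 12.65 and 11.44 in NC-1, and 6.236 and 7.696 with miR-4711-5p, which was 0.574 times Parent. PSMB6, PSMB7, PSMB8, PSMB9 and the 7 genes of this paragraph were called in the same direction against Parent and NC-1, and all of them kept that direction under all 4 scales.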

How the data were processed

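RNA sequencing was performed on 6 libraries of BxPC-3 cells (2 per group), prepared with a stranded mRNA kit. The authors mapped the reads to hg19 and deposited FPKM per gene symbol, calculated with Cuffnorm; no read counts were used here. The submitters' processing notes name TopHat2 2.1.1, Bowtie2 2.3.5.1, SAMtools 1.2 and Cufflinks 2.2.1, and the paper's methods name other versions of the mapping tools. The gene annotation, the strand option and the normalization option are not given in the sources used here. The paper lists one negative control duplex and a purchased second control, and which of them NC-1 is was not stated.

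The 12040 genes that averaged 1 FPKM or more were fitted on log2(FPKM + 1) using limma 3.58.1 in R 4.3.3 (lmFit, contrasts.fit, eBayes with a trend), with all 3 groups in 1 fit of 3 residual and 4.15 prior degrees of freedom, two-sided, and Benjamini-Hochberg adjustment over all genes at 0.05. Log2 differences on this scale slightly understate those of FPKM. With 2 libraries against 2, exact permutation reaches no p under 0.333, so each p rests on the spread shared across genes. Percent changes and ratios are of mean FPKM. Other steps used Python 3.11.15, numpy 2.4.6, pandas 2.3.3, scipy 1.17.1 and matplotlib 3.10.9, and the fit was first tested on simulated data.

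Seed sites were searched in transcripts of GENCODE release 44 lifted to GRCh37, and motifs in RefSeq promoters on GRCh38.p14; no coordinate was converted between builds. Coding-sequence and other-strand sites were added after the data had been seen.

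The members and lists were chosen with earlier results of these data known. Values in every library are given for members called in the same direction against Parent and NC-1 without overlap, for the highest and lowest member of each role in Parent, and for members with a 3′ UTR seed site, and beside these for PSMB3, DDI2, PSMB6 and NFE2L1; PSMB3 was picked after its values were seen. Other pathway genes are named where they were called in the same direction in both comparisons, plus NFE2L1. PSMB5 and PSMB10 are named beside the other members of their lists, and ADRM1 and SHFM1 beside the base genes. The labels do not say whether the same replicate number pairs libraries. The deviations of same-numbered libraries from their group means correlated at 0.061, 0.003 and -0.009 over the 12040 genes, which cannot show how the libraries were prepared. Alternatives were a pseudocount of 0.1, no filter, 3 other scales, fits of only the 2 groups compared, no trend, a replicate block, a required log2 difference of at least 0.32 beside the adjusted p, and each library left out.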

Additional observations from a re-analysis of the deposited data

How the results depend on the processing

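Directions and calls of PSMA4, PSMD10 and PSMC4 against Parent and NC-1 held under every alternative that was refitted (14 each). The required log2 difference of at least 0.32, which took no refit, removed the call of PSMC4 against Parent, where its log2 difference was 0.27. Counts and medians over the 31 genes moved with the scale, the required difference and single libraries. After rescaling to the same sum, 16 genes were higher and 2 lower than Parent (median 0.1267), and 19 were higher and 2 lower than NC-1 (median 0.1748). In NC-1, 2 were lower than in Parent (median -0.0396). The counts for the 12040 genes tested were 3980, 1759, 2884, 2061 and 965 in the same order, with medians of 0.1151, 0.0556 and 0.0694. Median-of-ratios scaling over genes of at least 10 FPKM was an alternative chosen after seeing the data. After it, 10 were higher and 3 lower than Parent (median 0.0617), and 4 were lower in NC-1 than in Parent (median -0.0631). The counts for the 12040 genes tested were 3086, 2246 and 1181 in the same order, with medians of 0.0512 and 0.0444. Median-of-ratios factors over all genes were 1.006 or 1.007 in every library, so that refit nearly repeated the deposited scale and could hardly change a result. It changed no sign or call of the 31 genes (15 in place of 16 other pathway genes were called against NC-1). A pseudocount of 0.1 changed none of the results by more than the limits set. For the counts higher than Parent (4), lower than Parent (8) and lower in NC-1 than in Parent (9), fitting without a trend gave 1, 4 and 4, and a required log2 difference of at least 0.32 gave 0, 2 and 1. That requirement left 2 of the 13 genes higher than NC-1. Without the filter on low values, 5 were lower than Parent and 5 lower in NC-1 than in Parent, and with only the 2 groups compared in the fit the latter count was 5.

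With each library left out in turn, the ranges were 1 to 6 genes higher and 2 to 8 lower than Parent, 3 to 13 higher and 2 lower than NC-1, and 0 higher and 1 to 5 lower in NC-1 than in Parent. The medians ranged from -0.0539 to 0.0104, from 0.0917 to 0.1436 and from -0.1658 to -0.0883 in that order. With the replicate number as a replicate block, 5 genes were lower than Parent, the calls of PSMD12 and PSMD2 against Parent (limma, adjusted p of 0.0657 and 0.0594) and of PSMC4 and PSMC3 in NC-1 against Parent (0.0515 and 0.0558) were lost, and no other call of a gene whose values are given in full changed. The labels do not say that the numbers pair libraries, so this is no measure of a paired effect.

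Of the other pathway genes, 22 in place of 13 were called against Parent after rescaling to the same sum. Between NC-1 and Parent, 1 in place of 6 was called without the filter, 3 with only the 2 groups compared and 3 without a trend. With a library left out, 10 to 14, 11 to 17 and 1 to 4 were called against Parent, against NC-1 and between NC-1 and Parent.

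Rescaling to the same sum turned the sign of 9 of the 31 genes against Parent, 3 against NC-1 and 7 in NC-1 against Parent. Of these, PSMB4 (0.0159) and PSMD2 had been called lower than Parent, and PSMB1 and PSMD3 (0.136) were called higher after it. Among genes whose values are given in full it gave, against Parent, 0.1071 for PSMB1 (called higher, adjusted p = 0.0456 with limma), 0.0671 for PSMC3, 0.0084 for PSMD2, 0.0926 for PSMD1 and 0.0337 for PSMD8. Against NC-1 it gave 0.0234 for PSMA7 and 0.0014 for PSMA5, and in NC-1 against Parent 0.0581 for PSMA4, 0.0039 for PSMB2 and 0.0341 for PSMC2. Scaling over the genes of at least 10 FPKM gave 0.0422 for PSMB1, 0.0024 for PSMC3 and 0.028 for PSMD1 against Parent, and 0.0341 for PSMA4 and 0.0103 for PSMC2 in NC-1 against Parent. With a library left out, the log2 difference of NC-1 from Parent ranged from -0.0178 to 0.0513 for PSMA3, from -0.0814 to 0.0276 for PSMA4, from -0.122 to 0.0221 for PSMC2, from -0.1827 to 0.0024 for PSMD1 and from -0.1738 to 0.0033 for PSMD12, and that of miR-4711-5p from NC-1 ranged from -0.0684 to 0.0064 for PSMA7 and from -0.048 to 0.1371 for PSMD1. The cause of these changes was not tested. With 2 libraries a group and no read counts, small differences cannot be told from the spread between libraries.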
